A study of Oryctolagus cuniculus with 16 samples.

Results

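The comparison set the vaginal wall of rabbits that received an acellular graft against that of rabbits that had sham surgery. Its members are the libraries labelled "without particles" (acellular 6, 8 and 10) and "sham" (sham 11, 12 and 14), which makes 6 of the 16 libraries of the series, and all genes with a symbol were used. The animals were juvenile female New Zealand White rabbits of 17 to 19 weeks. Each library was taken as a separate animal, and the number in its name is the one in its sample title. The number 9 occurs in both the unoperated and the tissue-particle group, so these numbers need not name animals. Sham animals were operated on, and the labels name no graft for them. Acellular animals carried an inserted graft without tissue particles, and their tissue was taken 10 mm from the graft zone. The labels give no sampling distance for sham, so sampling site and graft cannot be told apart here. They also give neither the time after surgery nor the material of the graft. The other libraries, 6 from rabbits without surgery (control) and 4 from rabbits with a graft carrying autologous tissue particles (PLATE), entered the shared statistical model, and the control values are printed beside some genes for reference. The study as titled concerns vaginal healing after surgery with tissue micrografts or acellular grafts.

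The vaginal wall has an epithelium, a connective tissue layer rich in collagen and elastic fibres, and coats of smooth muscle supplied by autonomic nerves. Smooth muscle contracts through actin, myosin and their regulators, a programme switched on by serum response factor with its partner myocardin. After an operation, wound repair brings in leucocytes, fibroblasts that lay down matrix, and new vessels, and a graft without living cells is repopulated from the tissue around it. Interferon gamma from T cells and natural killer cells is known to raise MHC class II molecules and the chemokines CXCL9, CXCL10 and CXCL11, which in turn draw T cells.

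Acellular libraries held 20992063 to 27220874 counts and sham libraries 26659187 to 30695000, of which 15348880 to 19473478 and 19615994 to 22481735 fell on genes with a symbol. Mitochondrially encoded genes took 12.9 to 18.1% of the named counts in acellular and 9.53 to 12.6% in sham. This share and the number of named counts separated the groups without overlap (two-sided exact permutation p = 0.1 for each, the smallest that 3 against 3 can give, and adjusted 0.4 over 8 such measures). Genes with a count numbered 11048 to 11510 in acellular and 11438 to 11614 in sham. Across genes, Spearman correlations were 0.979 to 0.986 between sham libraries, 0.937 to 0.974 between acellular libraries and 0.942 to 0.974 between an acellular and a sham library. The closest acellular pair, 8 and 10, reached 0.974, and acellular 6 was as close to sham 14 (0.974) as these were to each other. Some libraries stood apart in single gene groups, and these are given with the results. Acellular 6 was high in immediate early genes and low in MHC class II genes, acellular 8 and 10 were high in leucocyte genes, acellular 10 was high in cilia and neutrophil genes, sham 11 was high in collagens, and sham 12 alone held MMP1, MMP9 and MMP12 above 60 CPM. ESR1, the oestrogen receptor of the genital tract, was found in every library at 324, 415 and 467 against 417, 396 and 436 CPM. CPM are read counts scaled to the effective size of each library, per the TMM factors. Throughout, the 3 values before "against" are acellular 6, 8 and 10 and the 3 after it are sham 11, 12 and 14.

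No gene passed an adjusted p of 0.05 in edgeR's quasi-likelihood test (0 of 10942 tested, 0% called). The smallest adjusted p was 0.902. At an unadjusted p under 0.05 there were 533 genes (4.87%), 193 higher (1.76%) and 340 lower (3.11%) in acellular. Fitted on the acellular and sham libraries alone, the same test again called 0 genes, with 1392 of 10489 (13.3%) at an unadjusted p under 0.05 and a smallest adjusted p of 0.0758. DESeq2 called 1 gene, THY1 (adjusted p = 0.0275, 0.00914% of genes), and limma voom with quality weights called 72 (0.658%, 31 higher and 41 lower), all with adjusted p between 0.0495 and 0.05. Over all genes the fold change had a median of 0.02 and a median standard error of 0.349 on the log2 scale. All fold changes are acellular minus sham on the log2 scale, ± the standard error of the edgeR fit. For 2006 genes (18.3%) the groups did not overlap: in 1150 (10.5%) every acellular library lay below every sham library, and in 856 (7.82%) every one lay above. Since no gene was called in edgeR, what follows describes levels, counts and medians, against a background of 47.8% of all genes with a negative and 52.2% with a positive fold change.

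**Figure D1:**
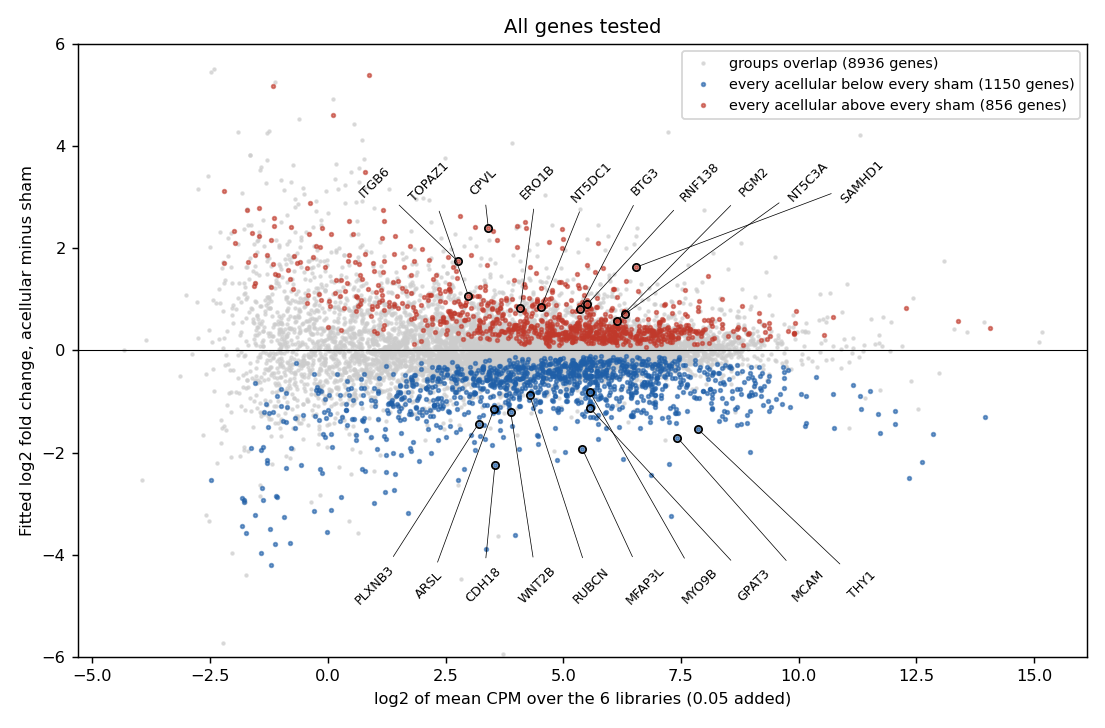
Fitted log2 fold change (acellular minus sham, vertical axis, cut at 6 in either direction, 4 genes lie outside) against the log2 mean CPM of the 6 libraries (horizontal axis) for the 10942 genes tested. Blue and red points are the 1150 and 856 genes whose groups did not overlap, and the circled genes are the 10 lower and 10 higher ones with the smallest p at a mean of at least 5 CPM.

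Among separated genes with a mean of at least 5 CPM, the smallest p belonged to THY1, a surface glycoprotein of fibroblasts and some other cells, at 111.7, 126 and 118 against 503, 224 and 309 CPM (log2 fold change -1.54 ± 0.32). The acellular values lay close together and below all 6 control libraries (156 to 334 CPM). MCAM, an adhesion molecule of smooth muscle, pericytes and endothelium, stood at 71.2, 86.6 and 83.4 against 312, 227 and 249 CPM (-1.71 ± 0.44). It too lay below every control library (86.8 to 362 CPM) in all 3 acellular animals, but acellular 8 only just. GPAT3, which makes lysophosphatidic acid on the way to triglyceride, stood at 33.1, 30 and 26 against 61.9, 53.3 and 80.5 CPM (-1.13 ± 0.26), with sham 11 and 14 above the control range of 30.3 to 53.8 CPM and acellular 8 and 10 just below it. WNT2B, a Wnt ligand, stood at 9.67, 10.1 and 7.0 against 26, 17 and 18.4 CPM (-1.20 ± 0.29). PLXNB3, a plexin receptor for semaphorin, stood at 4.93, 4.23 and 5.62 against 14.7, 12.9 and 12.5 CPM (-1.44 ± 0.37). For both genes every acellular library lay below every control library. CDH18, a type II cadherin, stood at 1.64, 6.18 and 4.44 against 18.5, 15.7 and 23.5 CPM (-2.24 ± 0.59). MFAP3L stood at 15.4, 21.4 and 16.1 against 88.8, 53.5 and 58.9 CPM (-1.93 ± 0.51). The remaining 3 of the 10 were RUBCN, a brake on autophagosome maturation (-0.87 ± 0.23), MYO9B, an unconventional myosin (-0.81 ± 0.22), and ARSL, an arylsulfatase (-1.15 ± 0.32).

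On the higher side the steps were mostly smaller. TOPAZ1, a germ cell gene with a PAZ domain, stood at 12.1, 10.3 and 9.57 against 3.31, 6.42 and 5.52 CPM (1.07 ± 0.28). ERO1B, an oxidase that drives disulfide formation in the endoplasmic reticulum, stood at 15.3, 23.8 and 25.8 against 11.2, 12.1 and 13.4 CPM (0.82 ± 0.22). For ERO1B acellular 6 was the nearest to sham. CPVL, a carboxypeptidase first found in macrophages, stood at 23.5, 21.4 and 8.39 against 1.82, 5.12 and 3.21 CPM (2.39 ± 0.70), high in acellular 6 and 8 and lower in acellular 10. In contrast SAMHD1, which hydrolyses deoxynucleotides and restricts retroviruses, stood at 73.8, 102.95 and 249 against 42.5, 53.9 and 41 CPM (1.63 ± 0.49) with its highest value in acellular 10. ITGB6, the epithelial integrin chain that releases active TGF-beta, stood at 4.42, 7.73 and 18.9 against 3.4, 2.92 and 2.92 CPM (1.75 ± 0.53) and followed the same order. Without acellular 10 the fold change was 0.95 for SAMHD1 and 0.98 for ITGB6. The other 5 were PGM2, a phosphopentomutase (0.57 ± 0.16), BTG3, an antiproliferative factor (0.82 ± 0.24), NT5C3A, a pyrimidine nucleotidase induced by interferon (0.71 ± 0.21), NT5DC1 (0.85 ± 0.26) and RNF138, a ubiquitin ligase of DNA repair (0.90 ± 0.28). PGM2 stood at 88.7, 78.4 and 84.9 against 57.7, 54.2 and 57.5 CPM, above the control range (61.8 to 81.4 CPM) in acellular 6 and 10 and below it in all 3 sham libraries. NT5C3A stood at 99.7, 105.2 and 89 against 49.4, 62.9 and 67.6 CPM, above the control range (51.6 to 80.2 CPM) in all 3.

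Smooth muscle contractile genes were lower in acellular than in sham. All 25 members tested had a negative fold change, with a median of -1.19, and in 24 of them the groups did not overlap, beside 10.5% of all genes separated in this direction. The lists were chosen with earlier results of these data known. Shares set beside all genes, here and below, are therefore descriptions and not tests. ACTG2, the enteric smooth muscle actin, stood at 1283, 1823 and 1549 against 13087, 5714 and 7491 CPM (-2.50 ± 1.02). ACTA2, the vascular smooth muscle actin, stood at 1728, 2489 and 2514 against 14513, 7198 and 9098 CPM (-2.19 ± 0.77). The 3 acellular values of each lay within a factor of 1.5 of each other, and sham 11 was highest in both. The actins are near identical in coding sequence and the counting rule for shared reads is not given, so the split between ACTA2 and ACTG2 is uncertain. MYH11, the smooth muscle myosin heavy chain, has no such copy and stood at 8745, 10857 and 7548 against 27442, 17442 and 22551 CPM (-1.31 ± 0.68). DES, the muscle intermediate filament desmin, stood at 1000, 2045 and 1948 against 6077, 5049 and 4220 CPM (-1.62 ± 0.78). SMTN, smoothelin of contractile cells, stood at 182, 229.9 and 189.8 against 988, 727 and 671 CPM (-1.99 ± 0.66). For MYH11 and SMTN the acellular libraries spanned a narrower CPM range than the sham libraries. PPP1R12B, a subunit of myosin phosphatase, stood at 86.3, 38.7 and 35.3 against 364, 191 and 198 CPM (-2.23 ± 0.76). The smallest steps of the list were in the focal adhesion proteins VCL (-0.60 ± 0.39) and PGM5 (-0.42 ± 0.52), and the member that overlapped was CALD1, the thin filament protein caldesmon, whose acellular 8 value exceeded sham 14 (2033, 3442 and 1965 against 5215, 4324 and 3247 CPM). The control libraries spanned both groups for MYH11 (4924 to 54528 CPM), DES (1077 to 21079 CPM) and SMTN (151 to 1984 CPM).

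**Figure D2:**
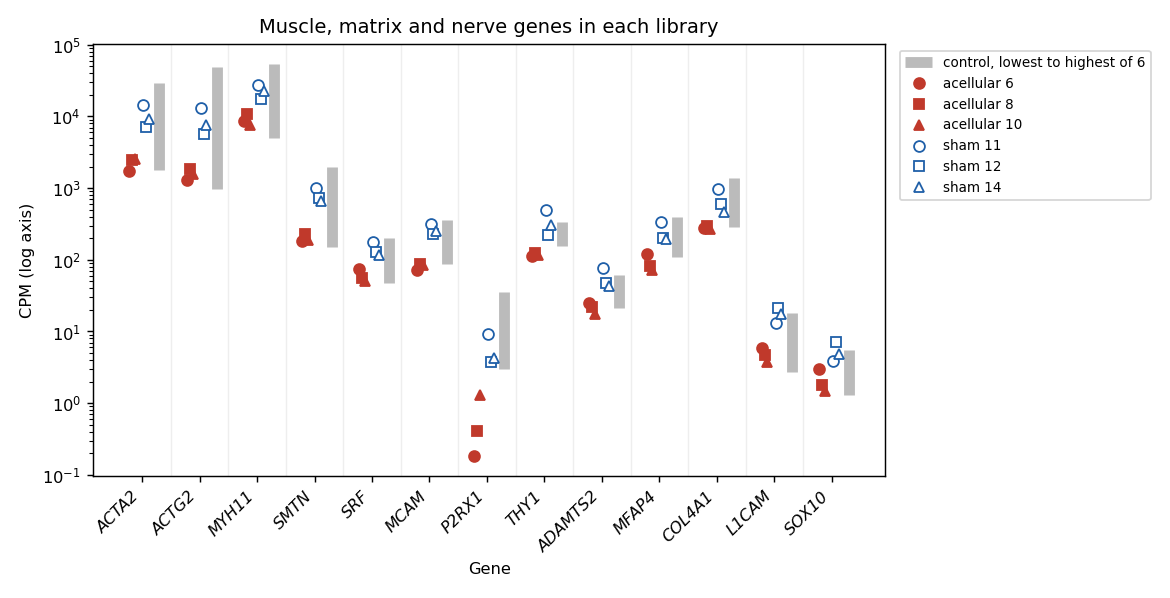
CPM (log axis) of muscle, mural, matrix and nerve genes in each acellular (red, filled) and sham (blue, open) library, with the range of the 6 control libraries as a grey bar. In all 13 genes the highest acellular library lay below the lowest sham library.

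In bulk tissue, fewer smooth muscle cells in the piece and less RNA of these genes per cell cannot be told apart. Beside the contractile list, summed columnar epithelium transcripts were 1503 to 3188 CPM in acellular and 983 to 1571 CPM in sham, and their part in the muscle result was not tested. Of the skeletal muscle list, 11 of 15 members tested were lower at a median of -0.76, with summed levels of 271 to 385 CPM in acellular and 407 to 513 CPM in sham. Among its defining genes ACTA1, the skeletal actin, stood at 0.639, 0.134 and 1.87 against 6.71, 2.15 and 2.35 CPM. Its acellular values rest on 14, 2 and 38 counts. How reads shared with ACTA2 and ACTG2 were counted is not given, so the level of ACTA1 is uncertain too. CKM, the muscle creatine kinase, stood at 43.5, 6.79 and 1.68 against 46.8, 27.1 and 23.4 CPM, so acellular 6 lay among the sham values. The fast myosin genes MYH1 and MYH4 had 0 counts in each of these 6 libraries, which allows up to 3 counts, or 0.124 to 0.202 CPM. With voom the median of the skeletal list was -1.52.

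The transcription factors and receptors of smooth muscle were mixed: 19 of 23 were lower, 10 without overlap, at a median of -0.29. Those without overlap made 43.5% of the list, beside 10.5% of all genes. SRF, serum response factor, stood at 74.6, 56.4 and 50.9 against 179.7, 127 and 114.8 CPM (-1.21 ± 0.40), and its coactivator MYOCD, myocardin, at 68.6, 74.1 and 94.7 against 153, 161 and 173 CPM (-1.04 ± 0.51). P2RX1, the ATP-gated channel through which sympathetic nerves contract smooth muscle, had the widest step of the list, at 0.182, 0.403 and 1.28 against 9.17, 3.78 and 4.28 CPM (-3.18 ± 0.89). All 3 acellular values lay below the lowest control, at 3.0 to 35.5 CPM in control. ADRA1A, the alpha-1A adrenergic receptor, stood at 15.7, 14.9 and 13.4 against 56.6, 38.4 and 30.9 CPM (-1.51 ± 0.60). EDNRA, the endothelin A receptor, stood at 57.7, 114.6 and 92.7 against 164, 131 and 134 CPM (-0.69 ± 0.41). The muscarinic receptors CHRM2 and CHRM3 and the prostaglandin F receptor PTGFR overlapped and had positive fold changes (0.17 ± 0.77, 0.38 ± 0.94 and 0.88 ± 0.47). The list's median was -0.60 without acellular 6 and -0.17 without acellular 10.

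Mural cells of small vessels share part of this programme. All 13 members of the pericyte list were lower (median -0.81) and 6 did not overlap (46.2%, beside 10.5% of all genes). Besides MCAM these included KCNJ8, the pore of a vascular ATP-sensitive potassium channel, at 65.7, 65.5 and 43.8 against 163, 106.7 and 125 CPM (-1.17 ± 0.55), NOTCH3, the Notch receptor of arterial muscle, at 36.8, 33.1 and 38.2 against 67.2, 65 and 60.1 CPM (-0.83 ± 0.39). COX4I2, a respiratory subunit of lung and mural cells, stood at 1.28, 1.95 and 1.53 against 3.17, 4.21 and 2.31 CPM (-1.03 ± 0.42). The defining pericyte genes PDGFRB, RGS5 and CSPG4 did not share the gap, and each overlapped. PDGFRB, the receptor for platelet-derived growth factor B, stood at 145, 189 and 140.5 against 183, 166 and 141 CPM. RGS5 stood at 156, 175 and 224 against 133, 285 and 252 CPM (-0.27 ± 0.74). CSPG4 stood at 18, 7.46 and 5.52 against 20.6, 17.3 and 13.2 CPM (-0.72 ± 0.64). Endothelial genes differed little: 21 of 23 were lower but at a median of -0.24, and 2 did not overlap (8.7%, beside 10.5% of all genes). PECAM1, an endothelial adhesion molecule, stood at 93.7, 155 and 167 against 159, 150.2 and 147 CPM. VWF, von Willebrand factor, stood at 78.3, 317 and 318 against 199.8, 181 and 229 CPM. Acellular 6 was the low library in both, and the endothelial median was -0.10 without it, -0.38 without acellular 8 and -0.15 without sham 11. Lymphatic genes had a median of 0.11 over 7 members, none separated.

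Fibroblast and matrix genes were lower as well. Of the fibroblast list 21 of 26 were lower (median -0.82), 10 without overlap. Of the fibrillar collagens and the enzymes that process and crosslink them, 27 of 30 were lower (median -0.87), 16 without overlap. Those without overlap made 38.5% of the fibroblast list and 53.3% of the collagen list, beside 10.5% of all genes. COL3A1, the chain of type III collagen, stood at 4316, 3831 and 2573 against 20726, 7331 and 5375 CPM (-1.64 ± 0.66). COL1A1, a chain of type I collagen, stood at 1735, 927 and 672 against 6570, 1672 and 1289 CPM (-1.52 ± 0.71). Sham 11 exceeded the other sham libraries in both, and COL1A1 overlapped because acellular 6 lay above sham 12 and sham 14. Without sham 11 the fold change was -0.81 for COL3A1 and -0.40 for COL1A1, and the median was -0.58 for the collagen list and -0.48 for the fibroblast list. Processing enzymes differed more evenly between animals. ADAMTS2, the procollagen N-proteinase, stood at 24.9, 22 and 17.6 against 77.9, 47.3 and 43.6 CPM (-1.39 ± 0.44). PLOD2, a lysyl hydroxylase of crosslinking, stood at 108.2, 117 and 89.2 against 273, 219.8 and 208 CPM (-1.16 ± 0.48). P3H3, of the collagen prolyl 3-hydroxylase family, stood at 48.8, 42.3 and 42.1 against 89.3, 64.4 and 63.1 CPM (-0.70 ± 0.26). In these 3 enzymes sham 14 was the lowest sham library and still lay above every acellular one. COL16A1, a fibril-associated collagen, stood at 71.1, 86.4 and 76.8 against 244, 129.7 and 132 CPM (-1.11 ± 0.39). Without sham 11 its fold change was -0.73. LOX, lysyl oxidase, overlapped at 217, 92.1 and 81.6 against 125, 94.4 and 58.6 CPM. Against this, the fibroblast marker PDGFRA, a growth factor receptor, was level at 102.4, 100.4 and 75.3 against 103.4, 93.8 and 101.7 CPM, and DCN, the proteoglycan decorin, overlapped at 6944, 9016 and 4681 against 6919, 10302 and 10809 CPM. PDGFRA and DCN are both widely used markers of fibroblasts. LUM, the collagen-binding proteoglycan lumican, stood at 1057, 2475 and 1211 against 3421, 4004 and 3094 CPM (-1.15 ± 0.42). GSN, the actin-severing protein gelsolin, stood at 2114, 2742 and 2820 against 6113, 5484 and 5916 CPM (-1.19 ± 0.44).

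Elastic fibre genes were lower in 10 of 11 (median -0.79, 4 without overlap), and without sham 12 the median was -0.32. MFAP4, a fibre-associated glycoprotein of the microfibril, stood at 122, 81.9 and 72.6 against 337, 204 and 196 CPM (-1.42 ± 0.45). EMILIN1, which sits between elastin and microfibril, stood at 26.3, 34.9 and 27.3 against 93.8, 72.2 and 55.9 CPM (-1.33 ± 0.48). FBN1, fibrillin-1, overlapped at 267, 394 and 248 against 465, 399 and 274 CPM. Proteoglycans and matricellular proteins were lower in 22 of 26 (median -0.69, 11 without overlap). Those without overlap made 42.3% of this list and 36.4% of the elastic fibre list, beside 10.5% of all genes. HSPG2, the basement membrane proteoglycan perlecan, stood at 238, 279 and 193 against 926, 506 and 503 CPM (-1.45 ± 0.57). FMOD, fibromodulin, stood at 2.33, 2.42 and 1.23 against 4.66, 5.31 and 4.16 CPM (-1.24 ± 0.50). FN1, fibronectin of the provisional wound matrix, stood at 1610, 2994 and 1781 against 3522, 4136 and 3488 CPM (-0.80 ± 0.57). The 4 members with positive fold changes were THBS1, SPP1, CCN1 and CCN2. CCN1, which responds quickly to stretch and serum, stood at 1377, 62.8 and 195 against 134, 179 and 226 CPM. CCN2, its relative with the same habit, stood at 729.9, 217 and 115.7 against 103.8, 123 and 193 CPM. In both, acellular 6 alone stood high.

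Basement membrane and integrin genes were lower in 18 of 26 (median -0.55), with 10 separated below and 1 above. Together the separated members made 42.3%, beside 18.3% of all genes separated in either direction. COL4A1, a chain of type IV collagen, stood at 273, 295 and 266 against 957, 596 and 463 CPM (-1.27 ± 0.47). TINAGL1, a matrix protein related to tubulointerstitial nephritis antigen, stood at 19.6, 28.4 and 27.4 against 82.5, 49.7 and 45.6 CPM (-1.24 ± 0.46). Every acellular value of TINAGL1 lay below the control range of 40.8 to 133 CPM. ITGA5, the fibronectin receptor chain, stood at 70.1, 98 and 132 against 321, 219 and 164 CPM (-1.23 ± 0.63). ITGA7, the laminin receptor chain of muscle, stood at 5.66, 11.7 and 10.5 against 22.3, 19 and 16.4 CPM (-1.05 ± 0.53). The 1 member separated above was ITGB6, given earlier. LAMA3, a laminin chain of epithelial basement membrane, had a positive fold change with overlap, at 66.1, 173 and 271 against 57.5, 83.8 and 94.2 CPM.

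Metalloproteinases split by animal. Of 20 members 16 were lower (median -0.61, and -0.36 without sham 12 and -1.12 without acellular 10). ADAMTS9, a proteinase of versican and aggrecan, stood at 35.8, 30 and 42.9 against 385, 89.3 and 118 CPM (-2.45 ± 0.81), with sham 11 the highest and a fold change of -1.51 without it. ADAM19 stood at 29.6, 17.1 and 35.4 against 72.8, 45.8 and 47.4 CPM (-1.01 ± 0.46). MMP16, a membrane-type metalloproteinase, stood at 7.25, 4.37 and 4.74 against 14.5, 9.48 and 7.04 CPM (-0.92 ± 0.34). ADAMTS9 and ADAM19 were separated from sham, and MMP16, whose fold change was -0.58 without sham 11, was not. In the list 4 members were separated, all below sham, or 20% beside 10.5% of all genes. MMP1, interstitial collagenase, was at 0.0456, 0.538 and 0.691 against 0, 77.2 and 0.0823 CPM, with sham 12 alone above 1 CPM. MMP9, gelatinase B of leucocytes, stood at 0.228, 0.874 and 4.34 against 0.373, 67.7 and 0.124 CPM. MMP12, macrophage elastase, stood at 0.0912, 3.49 and 26.6 against 0.466, 65.2 and 0.494 CPM, again with sham 12 on top. The values under 1 CPM rest on few counts. MMP7, the epithelial matrilysin, was the member with the widest positive fold change, at 11.1, 9838 and 4413 against 208, 443 and 115.6 CPM (4.22 ± 1.96). Acellular 8 and 10 exceeded every sham library and acellular 6 lay below every one, while control spanned 26.7 to 6823 CPM.

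Genes of peripheral nerve and its Schwann cells were lower in 16 of 20 (median -1.06), with 8 separated below sham and 1 above. Together the separated members made 45%, beside 18.3% of all genes separated in either direction. L1CAM, an adhesion molecule of axons and Schwann cells, stood at 5.93, 4.7 and 3.8 against 13.1, 21.5 and 17.5 CPM (-1.85 ± 0.56). SOX10, the Schwann cell transcription factor, stood at 3.01, 1.81 and 1.48 against 3.91, 7.04 and 4.9 CPM (-1.32 ± 0.50). GFRA3, the artemin receptor, stood at 4.97, 11.5 and 5.57 against 12.7, 18.5 and 19.8 CPM (-1.22 ± 0.48). These 3 genes were separated, and acellular 8 came nearest to sham for GFRA3. S100B, a calcium-binding protein of Schwann cells, overlapped, with acellular 6 the highest acellular library, at 21.9, 2.76 and 3.06 against 11.6, 29.1 and 17.5 CPM. The 1 member separated above sham, EGR2, is a myelination factor and also an immediate early gene, and stood at 9.4, 1.95 and 1.73 against 0.978, 0.958 and 0.823 CPM, highest in acellular 6. SOX10 and S100B, which mark Schwann cells, were found in every library. By library, the median difference from the sham mean was -0.47, -0.83 and -1.36 in acellular 6, 8 and 10.

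Growth factor and morphogen lists had medians near the all-gene value. The TGF-beta and BMP list had 17 of 30 lower (median -0.14), the Wnt and hedgehog list 18 of 36 (median 0.00), and the growth factor list 17 of 30 (median -0.10). Members separated in either direction made 20, 13.9 and 13.3% of these lists in that order, beside 18.3% of all genes. Some members are given singly. FSTL1, a secreted binder of BMPs, stood at 167, 204 and 179.6 against 442, 266 and 247 CPM (-0.79 ± 0.24), every acellular library but acellular 8 lying below all controls (199 to 327 CPM). Sham 11 was its highest library, and without it the fold change was -0.47. SMAD7, the inhibitory SMAD, stood at 12.5, 6.72 and 7.0 against 16.8, 13.1 and 13.2 CPM (-0.71 ± 0.33). GLI3, a hedgehog transcription factor, stood at 29.7, 35.7 and 24.9 against 63.8, 50.8 and 47.6 CPM (-0.84 ± 0.36). These 3 members lay below sham in every acellular animal. SFRP2, a secreted Wnt modulator of fibroblasts, stood at 256, 405 and 427 against 860.1, 504 and 618 CPM (-0.87 ± 0.41). IGFBP4, a binding protein of insulin-like growth factors, stood at 293, 350.3 and 398 against 824, 509 and 602 CPM (-0.89 ± 0.34) and IGF1 itself at 159, 252 and 320.4 against 951, 434 and 302 CPM (-1.20 ± 0.52), overlapping through acellular 10, and -0.58 without sham 11. IRS4, an insulin receptor substrate, was high in acellular 6 alone, at 6.52, 1.01 and 0.148 against 0.745, 0.239 and 0.329 CPM. The other acellular animals did not share this level. BDNF, brain-derived neurotrophic factor, was low in all libraries but separated, at 1.28, 1.61 and 0.937 against 0.233, 0.192 and 0.0823 CPM (2.88 ± 0.90). Steroid receptor genes had a median of -0.05 over 9 members with none separated, and PGR, the progesterone receptor, stood at 97.3, 180.3 and 171 against 142, 146 and 172 CPM. The steroid, Wnt and growth factor medians changed sign when some libraries were left out, and the TGF-beta median was -0.05 without acellular 10 or without sham 14.

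Columnar epithelium genes were higher, 25 of 26 (median 0.65), and 5 were separated, a share of 19.2% beside 7.82% of all genes. EPCAM, an epithelial adhesion molecule, stood at 119, 158 and 287 against 70.6, 110.7 and 117 CPM (0.92 ± 0.95). MUC1, a membrane mucin, stood at 217, 299 and 426 against 127, 151 and 202 CPM (0.97 ± 1.07). Both were separated from sham, by a small margin in acellular 6. CLDN7, a tight junction claudin, stood at 47.1, 69.4 and 129 against 33.2, 36.9 and 47.5 CPM (1.06 ± 0.94), ELF3, an epithelial transcription factor, at 36.2, 50.6 and 110.2 against 17, 32.9 and 40.1 CPM (1.13 ± 1.02). MARVELD2, tricellulin of tight junctions, stood at 12.7, 10.7 and 16 against 6.29, 8.09 and 10.5 CPM (0.67 ± 0.63). Acellular 10 was the highest library in each of these 5. It lay above every sham library in 23 of 26 members, against 7 for acellular 6 and 13 for acellular 8, and without it the median was 0.31 and the fold changes of EPCAM, CLDN7 and ELF3 were 0.48, 0.57 and 0.53. Over all genes the share above every sham library was 32.6, 33.5 and 36.2% in acellular 6, 8 and 10. Squamous genes had a median of 0.13 over 14 members, which was -0.09 without sham 11, 0.01 without acellular 10 and 0.36 without sham 14. KRT5, the basal keratin, stood at 12, 7.06 and 4.64 against 3.07, 9.58 and 36.4 CPM, highest in sham 14.

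Secretory products of the epithelium divided the acellular animals. CLU, the secreted chaperone clusterin, stood at 1206, 11613 and 27439 against 5139, 3585 and 3211 CPM (1.75 ± 1.30), LTF, the iron-binding lactoferrin, at 3.97, 311 and 456 against 94.2, 65.2 and 175 CPM. PIGR, the receptor that carries IgA across the epithelium, stood at 725, 1674 and 3335 against 937, 917 and 814 CPM. In these 3 genes acellular 6 was lowest of all 6 libraries and acellular 10 highest, and the fold change of CLU was 0.69 without acellular 10. LCN2, the antibacterial lipocalin 2, was separated, at 99.2, 37 and 71.8 against 27.7, 18.5 and 18.9 CPM (1.68 ± 1.04), as was SLC12A2, the chloride-loading cotransporter of secretory cells, at 55.6, 94.1 and 137 against 40.1, 55.6 and 43.8 CPM (1.04 ± 0.66, and 0.69 without acellular 10). For SLC12A2 acellular 6 lay only just above sham 12 (55.64 against 55.59 CPM). The transport and secretion list had 14 of 20 higher at a median of 0.40, which was 0.01 without acellular 10, 0.71 without acellular 6 and 0.61 without sham 14. LCN2 and SLC12A2 were its 2 separated members, or 10% beside 7.82% of all genes separated above. Motile cilia genes were high in acellular 10. The list median was 1.84, but -0.78 without acellular 10, and the median differences from the sham mean were -0.28, -0.66 and 3.16 in acellular 6, 8 and 10. FOXJ1, the master regulator of motile cilia, had 2, 0 and 57 counts in acellular 6, 8 and 10 and 0, 6 and 0 in sham 11, 12 and 14. CFAP52, a ciliary axoneme protein, stood at 1.69, 0.806 and 7.74 against 0.838, 0.766 and 0.741 CPM. TEKT1, tektin of the axoneme, was the 1 member separated above, at 2.6, 2.42 and 5.08 against 1.63, 1.58 and 2.31 CPM. RFX2, a cilia transcription factor, the 1 separated below, stood at 4.56, 2.15 and 3.21 against 8.34, 5.51 and 7.41 CPM (-1.09 ± 0.50). TEKT1 and RFX2 together made 11.1% of the cilia list, beside 18.3% of all genes separated in either direction.

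**Figure D3:**
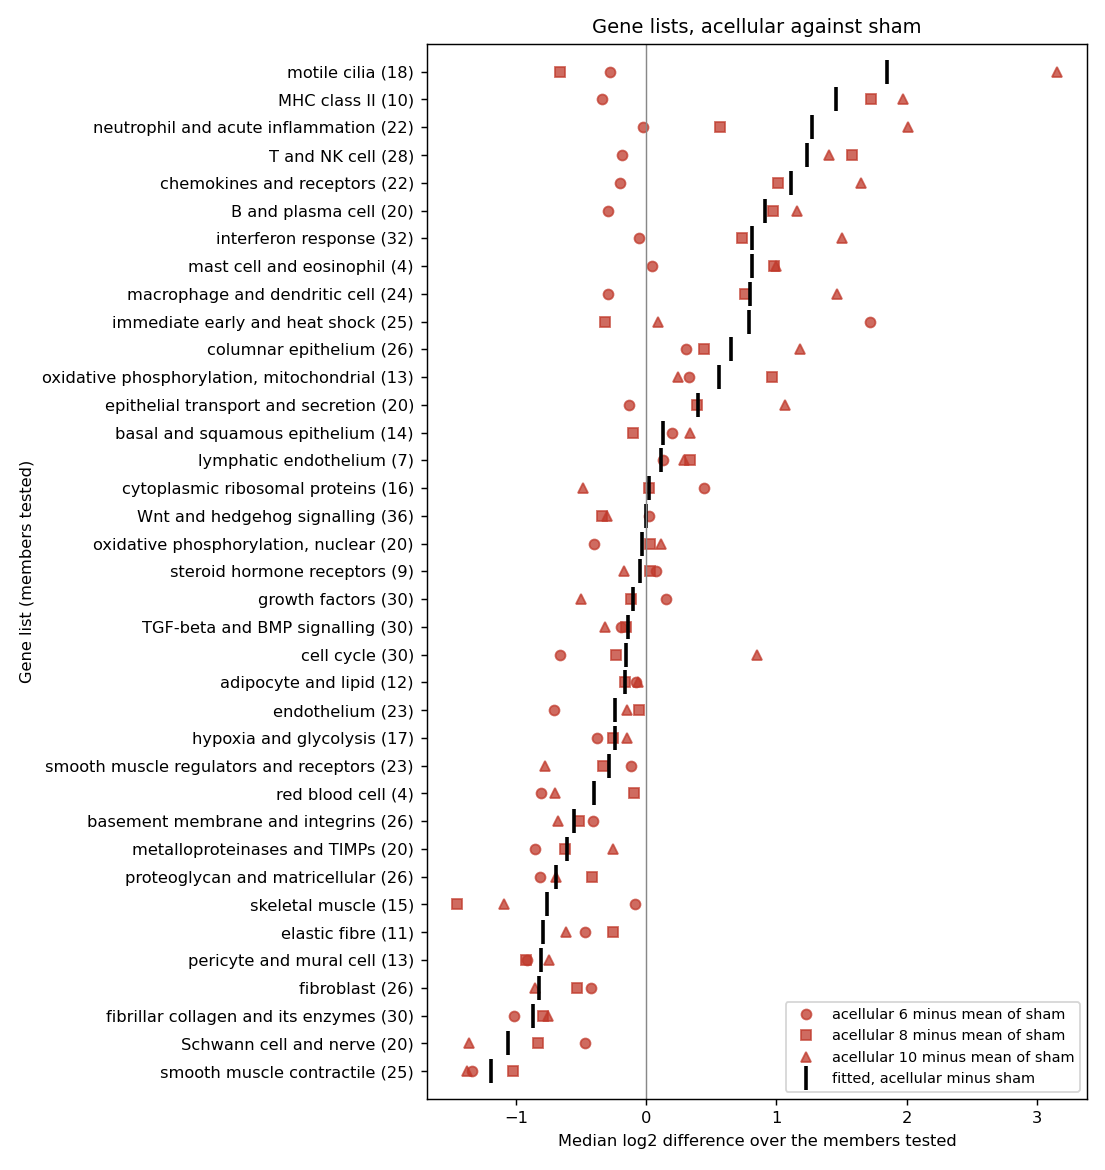
Median log2 difference over the members tested of each of the 37 gene lists: the fitted value (black bar) and each acellular library minus the mean of the sham libraries (red symbols). The smooth muscle contractile, collagen and pericyte lists lie below 0 in all 3 acellular libraries, while the MHC class II and T and NK cell lists lie above 0 in acellular 8 and 10 and below 0 in acellular 6.

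Leucocyte and interferon genes were higher on the whole in acellular than in sham, and the high libraries were acellular 8 and 10. Median log2 fold changes were 1.45 for MHC class II (9 of 10 higher), 1.24 for T and NK cells (27 of 28), 1.11 for chemokines and their receptors (18 of 22), 0.81 for interferon response (31 of 32), 0.92 for B and plasma cells (19 of 20) and 0.80 for macrophages and dendritic cells (24 of 24). Members separated above sham were 1 of 10, 3 of 28, 3 of 22, 2 of 32, 4 of 20 and 0 of 24 in that order. From T and NK cells onward these made 10.7, 13.6, 6.25, 20 and 0%, beside 7.82% of all genes separated in this direction. The MHC class II list had 20% separated in either direction, beside 18.3% of all genes. Acellular 6 did not share the levels of the other two. In the T and NK cell list, acellular 8 lay above every sham library in 24 of 28 members and acellular 10 in 23, but acellular 6 in 3. Acellular 6 lay below every sham library in 9 of these members, a share of 32.1% beside 33.3% of all genes. In the MHC class II list the counts above were 9 and 8 of 10 for acellular 8 and 10, and acellular 6 lay below every sham library in 8, or 80% of that list.

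HLA-DRA, the class II alpha chain DR, stood at 283, 1565 and 1552 against 290.5, 364 and 309 CPM (1.82 ± 0.85). CD74, the invariant chain that guides class II molecules, stood at 253, 1174 and 1395 against 366, 306 and 303 CPM (1.53 ± 0.88). Acellular 8 and 10 stood far above every sham library in both. For HLA-DRA they lay within the control range of 221 to 1800 CPM. HLA-DMB, which helps load peptide, stood at 18.7, 135 and 236 against 34.4, 35 and 27.7 CPM (2.00 ± 0.83). CTSS, the cathepsin that cleaves the invariant chain, stood at 80.9, 288 and 436 against 93.3, 132 and 98.3 CPM (1.32 ± 0.69). In each gene acellular 6 was the lowest of the 6 libraries, and without acellular 10 the fold change was 1.24 for HLA-DMB and 0.77 for CTSS. CIITA, the transcriptional switch of class II genes, was separated by a narrow margin in acellular 6, at 2.1, 10.1 and 7.99 against 2.05, 1.96 and 1.89 CPM (1.77 ± 1.02), while RFX5, the constitutive DNA-binding factor of the same promoters, was the 1 member separated below, by a small step (-0.15 ± 0.20). Class II genes belong to a family with similar members, and how shared reads were counted is not given.

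The T cell chemokines followed the same animals. CXCL9 stood at 3.01, 42 and 35 against 5.87, 3.02 and 6.34 CPM (2.39 ± 0.93) and CXCL11 at 7.62, 74.5 and 131 against 11, 9.1 and 11.1 CPM (2.77 ± 1.25), both above the control range (1.44 to 18.9 CPM and 0.090 to 49.3 CPM) in acellular 8 and 10. CXCR6, a receptor of resident T cells, was separated at 12.5, 89.3 and 54.9 against 11.9, 12 and 10.7 CPM (2.18 ± 0.90), as was CX3CR1, the fractalkine receptor of monocytes and cytotoxic cells, at 8.07, 16.2 and 34.5 against 4.33, 5.08 and 3.75 CPM (2.16 ± 0.83). LAG3, an inhibitory receptor of activated T cells, was separated too, at 1.0, 2.28 and 8.09 against 0.745, 0.766 and 0.453 CPM (2.53 ± 0.97). For CXCR6 acellular 6 lay only just above sham, and the fold change of LAG3 was 1.31 without acellular 10. TRAT1, a T cell receptor adaptor, and FASLG, the death ligand of cytotoxic cells, overlapped at 0.547, 3.09 and 2.12 against 0.652, 0.287 and 0.618 CPM and 1.69, 5.64 and 4.0 against 1.21, 0.479 and 2.8 CPM. NKG7, a granule protein of cytotoxic cells, overlapped at 2.74, 5.98 and 4.05 against 2.93, 3.35 and 4.57 CPM. IFNG, interferon gamma itself, overlapped at 0.41, 2.49 and 0.543 against 0.838, 0.239 and 2.96 CPM (-0.25 ± 1.06). Leaving out acellular 8 gave this list a median of 0.82.

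Among interferon-response genes TAP1, the peptide transporter of class I presentation, stood at 98.6, 245 and 381 against 87.3, 87.6 and 123 CPM (1.28 ± 0.60). GBP1, a guanylate-binding protein induced by interferon gamma, stood at 119.7, 517 and 1502 against 159, 165 and 176 CPM (2.10 ± 1.00). IDO1, the tryptophan-degrading enzyme, was separated at 7.34, 20.8 and 53.1 against 2.42, 6.94 and 5.72 CPM (2.43 ± 1.29). TAP1 and GBP1 overlapped with sham through acellular 6. ISG15, a ubiquitin-like modifier, stood at 21.4, 27.6 and 59 against 15.1, 28.7 and 45.7 CPM. RSAD2, the antiviral protein viperin, stood at 8.71, 14.4 and 26.2 against 10.1, 18 and 26.8 CPM, and sham 14 lay above acellular 6 and 8 in both. Without acellular 10 the fold changes of TAP1, GBP1 and IDO1 were 0.79, 0.94 and 1.48, the interferon median was 0.37 and the chemokine median 0.37.

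**Figure D4:**
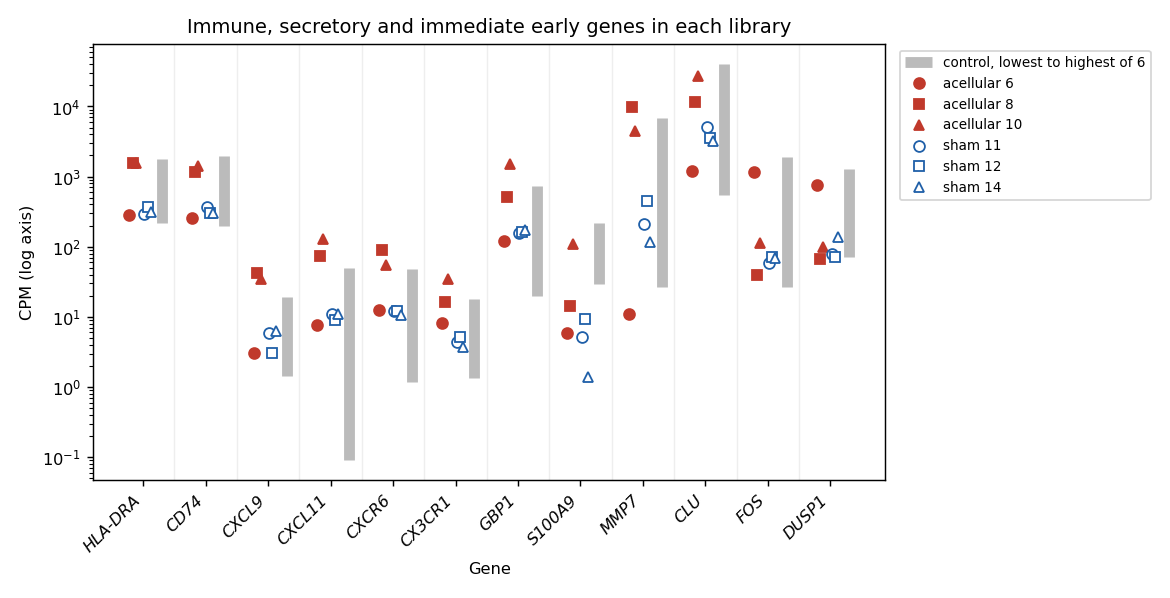
CPM (log axis) of immune, secretory and immediate early genes in each acellular (red, filled) and sham (blue, open) library, with the range of the 6 control libraries as a grey bar. Acellular 6 lies at or below the sham libraries in HLA-DRA, CD74, CXCL9, CXCL11, GBP1, MMP7 and CLU and far above them in FOS and DUSP1.

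Myeloid and B cell genes overlapped for the most part. C1QC, a complement chain of macrophages, stood at 19.1, 64.6 and 38.8 against 24.2, 17.8 and 15.6 CPM (1.09 ± 0.63). XCR1, the receptor of cross-presenting dendritic cells, stood at 0.867, 8.8 and 4.88 against 1.16, 1.44 and 1.44 CPM (1.84 ± 0.91). Without acellular 8 the fold change was 0.59 for C1QC and 1.09 for XCR1. Of the macrophage markers CD68 stood at 26.6, 50 and 83.2 against 29.5, 36.9 and 23 CPM. Without acellular 10 the macrophage median was 0.32. The 4 separated members of the B and plasma cell list were BLNK, IRF4, TNFRSF17 and PRDM1. TNFRSF17, the plasma cell receptor BCMA, stood at 3.88, 5.24 and 5.72 against 1.68, 1.72 and 1.89 CPM (1.48 ± 0.86). PRDM1, the plasma cell factor BLIMP1, stood at 29.2, 23.1 and 26.1 against 16.1, 13.7 and 12.5 CPM (0.89 ± 0.58). JCHAIN, the joining chain of polymeric immunoglobulin, overlapped, since acellular 6 lay below sham 14, at 1390, 3898 and 3650 against 1126, 1045 and 1455 CPM.

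Neutrophil genes were highest in acellular 10, which lay within the control range where the sham libraries lay below it. CSF3R, the receptor for granulocyte colony-stimulating factor, stood at 4.06, 0.47 and 26.4 against 0.652, 1.24 and 0.371 CPM, beside 6.38 to 38.1 CPM in control. S100A9, a chain of calprotectin, stood at 5.97, 14.2 and 109.4 against 5.22, 9.24 and 1.4 CPM, beside 29.5 to 218 CPM in control. CXCR1, an interleukin 8 receptor, was separated at 4.83, 4.84 and 26.2 against 3.03, 1.72 and 1.03 CPM (2.64 ± 1.34). Without acellular 10 its fold change was 1.33. The list's median of 1.27 over 22 members was 0.02 without acellular 10. Of these members 3 were separated, all above sham, or 13.6% beside 7.82% of all genes. Summed neutrophil list levels were 246 to 908 CPM in acellular and 126 to 316 CPM in sham. MPO, the granule peroxidase made in the bone marrow, and CPA3, the mast cell carboxypeptidase, had 0 counts in all 6 libraries, with the same limit of 3 counts.

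Immediate early genes marked acellular 6. FOS stood at 1172, 39.1 and 112.5 against 58.9, 71.2 and 68 CPM (2.74 ± 1.37), DUSP1, a phosphatase that ends MAP kinase signals, at 753, 67.5 and 98.4 against 80, 72.2 and 138 CPM (1.66 ± 1.01). ATF3, a stress transcription factor, stood at 624, 75.7 and 67.3 against 60.7, 135 and 182 CPM. The other 2 acellular libraries did not share these levels, and without acellular 6 the fold change was 0.20 for FOS and -0.22 for DUSP1. The list's median of 0.79 (19 of 25 higher) was -0.09 without acellular 6 and 1.23 without acellular 10. NR4A3, an immediate early nuclear receptor, was separated at 12.2, 5.91 and 3.45 against 3.35, 1.96 and 2.39 CPM (1.49 ± 0.90), with a fold change of 0.86 without acellular 6. Of the list 4 members were separated above sham and 2 below, or 24% beside 18.3% of all genes.

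Genes of energy metabolism and growth differed between the acellular animals. Mitochondrially encoded genes were higher in all 13 (median 0.56), 3 separated, or 23.1% beside 7.82% of all genes. ND2, a subunit of complex I, stood at 5361, 9044 and 4800 against 3347, 4363 and 3030 CPM. Acellular 8 was highest in ND2, and without it the list's median was 0.27. Nuclear genes of oxidative phosphorylation had a median of -0.03 over 20 members, and 0.08 without acellular 6. Cytoplasmic ribosomal protein genes had a median of 0.03, and the acellular animals stood on opposite sides of sham: acellular 6 lay above every sham library in 14 of 16 members and acellular 10 below every one in 16 of 16. That median was -0.20 without acellular 6 and 0.22 without acellular 10. Cell cycle genes had a median of -0.16, which was 0.72 without sham 11 and -0.59 without acellular 10. CDK1, the mitotic kinase, was the 1 separated member, at 56.3, 51.9 and 39.8 against 32.2, 33.2 and 32 CPM (0.60 ± 0.35). That made 3.33% of the 30 tested, beside 7.82% of all genes separated above. Hypoxia and glycolysis genes were lower in 10 of 17 (median -0.24), 5 separated, or 29.4% beside 10.5% of all genes. Among the separated was EPAS1, the hypoxia factor of endothelium, at 490.2, 711 and 646 against 1320, 1016 and 746 CPM. That median was -0.04 without acellular 8 and -0.12 without sham 11. The adipocyte and lipid list had a median of -0.16 over 12 members. The red blood cell list had one of -0.40 over 4, which was 0.16 without sham 11 and -0.73 without acellular 8, and the mast cell and eosinophil list one of 0.81 over 4.

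Set beside the unoperated controls, genes outside the control range were found in both groups. Of the 1150 genes separated below sham, the acellular mean lay under the lowest control library in 222 and the sham mean lay over the highest in 192. Of the 856 separated above, the acellular mean lay over the highest control in 141 and the sham mean under the lowest in 120. Over all 10942 genes the group mean lay outside the control range in 12% for acellular and 11.4% for sham. P2RX1, THY1, PLXNB3, WNT2B and TINAGL1 were among the genes in which the acellular values were below control, and LUM (1103 to 2351 CPM in control) among those in which sham values were above it. GPAT3 had its acellular mean below the control range and its sham mean above it.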

How the data were processed

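Frozen vaginal tissue (up to 30 mg) gave poly(A) RNA for stranded Illumina libraries, per the labels' protocols. The authors used FastQC, HISAT2 2.2.1 and featureCounts, per the submitters' processing notes. The genome build, annotation and strand setting are not given in the sources used here, so antisense or overlapping genes cannot be told apart. The deposited table holds raw counts per gene symbol for 13001 genes. A pooled line of genes without a symbol (24.5 to 28.5% of counts in the 6 libraries) was left out, and columns were matched to samples by their trailing index.

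From these counts, genes passing filterByExpr were given TMM factors (trimmed mean of M values) and entered a single edgeR model (version 4.0.16, R 4.3.3) of the 4 groups and 16 libraries, which left 12 residual degrees of freedom. P-values were adjusted by Benjamini-Hochberg over 10942 genes. The acellular and sham titles shared no number. Alternatives were DESeq2 1.42.0, limma 3.58.1 voom, other scalings, no filter, other sample sets and each replicate left out. The p-values of this model set the difference between acellular and sham against the spread between animals within groups. That spread was estimated over all 4 groups, so control and PLATE animals enter it. The 37 gene lists (1145 entries, 747 tested, some shared between lists) were written with human symbols, and members and lists were chosen with earlier results of these data known. Named genes were the 10 lower and 10 higher separated genes with the smallest p at a mean of at least 5 CPM, up to 3 members per list with the smallest p at 1 CPM or more, and cell type markers. Some genes that this rule names are not reported here. Other members named were chosen after their values were seen. CPM carry no gene length and are compared between libraries only. No sequences are shown, because no sequence table was used.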

Additional observations from a re-analysis of the deposited data

How the results depend on the processing

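edgeR's count of 0 called genes held under every scaling, without a count filter, on the 2 groups alone, without 3 libraries of other groups that stood apart, and with each replicate left out, while DESeq2 called 1 and voom 72. The 533 genes at an unadjusted p under 0.05 did not hold: there were 225 without sham 11, 327 without acellular 10, 357 without acellular 8, 998 without acellular 6, 1392 on the 2 groups alone and 1359 without those 3 libraries. The cause was not tested. Of the 37 list medians 26 kept 1 sign under all 14 settings, and so did 126 of 147 named genes. The smooth muscle contractile, pericyte, basement membrane, nerve, MHC class II and B cell medians moved by less than 1.5 times under each. Medians with each replicate left out ranged as follows: adipocyte and lipid -0.15 to 0.17, elastic fibre -0.82 to -0.32, fibrillar collagen and its enzymes -0.999 to -0.58, fibroblast -0.87 to -0.48, growth factors -0.30 to 0.015, hypoxia and glycolysis -0.29 to -0.039, immediate early and heat shock -0.092 to 1.23, lymphatic endothelium 0.069 to 0.28, motile cilia -0.78 to 2.39, neutrophil and acute inflammation 0.018 to 1.60, smooth muscle regulators and receptors -0.60 to -0.17, steroid hormone receptors -0.093 to 0.078, TGF-beta and BMP signalling -0.19 to -0.048 and Wnt and hedgehog signalling -0.37 to 0.015. With voom the medians were immediate early and heat shock 0.12, lymphatic endothelium 0.21, motile cilia 0.026, proteoglycan and matricellular -0.52 and skeletal muscle -1.52. The motile cilia median was 0.38 on the 2 groups alone, and the mast cell median was 1.40 without a filter. Named genes that changed sign with a replicate left out had log2 fold changes in these ranges: ATF3 -0.82 to 1.47, CCN1 -0.48 to 2.13, CHRM2 -0.32 to 0.44, DUSP1 -0.22 to 2.14, ESR1 -0.17 to 0.084, FOXJ1 -0.79 to 7.29, IFNG -1.49 to 1.06, ISG15 -0.29 to 0.71, KRT5 -1.52 to 0.32, LOX -0.094 to 0.78, MMP1 -6.59 to 3.08, MMP12 -3.68 to 4.37, MMP9 -5.43 to 2.87, NKG7 -0.10 to 0.47, PDGFRA -0.18 to 0.024, PDGFRB -0.20 to 0.061, PECAM1 -0.29 to 0.085, PGR -0.19 to 0.20, RSAD2 -0.66 to 0.23 and VWF -0.042 to 0.64. With voom the sign differed for ATF3 -0.37, CCN1 -0.65, CHRM2 -0.10, CHRM3 -0.068, ESR1 0.016, IFNG 0.95, PDGFRB 0.084 and PGR 0.15. Leaving out a replicate leaves fewer samples, and the cause of other shifts was not tested. No pairing could be read from the labels, since acellular 6, 8 and 10 and sham 11, 12 and 14 share no number. The biological coefficient of variation between animals of a group was 0.44, a common value over genes and all 4 groups. Genes with under about 1 CPM rest on few counts.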
